A study of Mus musculus with 5 samples.

Results

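Messenger RNA of 8 genes of the sterol pathway was compared in brown adipose tissue (BAT) of cold-exposed mice with and without ATF4 in their thermogenic adipocytes. The genes are Srebf2, which encodes the transcription factor SREBP2, Insig1, which encodes a sterol-sensing protein that holds SREBP2 back, and the synthesis enzymes Hmgcs1, Idi1, Fdft1, Sqle, Lss and Cyp51. They were listed by name, with earlier results of these data known. All 8 were found among the 52022 genes with a transcript in the tables. They were also among the 16450 genes with enough counts to be tested. ATF4 BKO mice carried Atf4 fl/fl alleles and a Cre transgene under the Ucp1 promoter, whereas WT mice were littermates with Atf4 fl/fl alleles and no Cre. Cre acts in Ucp1-expressing adipocytes, so vessel, nerve and immune cells of the tissue keep Atf4, and Cre without floxed Atf4 was not among the groups. All were described as male, on a C57Bl/6J background, 10 to 12 weeks old and fed ad libitum, and spent 7 days at 30 °C and then 3 days at 4 °C. The data were 1 poly(A) RNA library from each of 3 ATF4 BKO and 2 WT mice.

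Cells make cholesterol from acetyl-CoA through the mevalonate pathway, which also supplies isoprenoids. When sterols in the endoplasmic reticulum are low, SREBP2 leaves with its escort SCAP for the Golgi, is cut by 2 proteases, and its freed part enters the nucleus and binds sterol regulatory elements (SREs) in the promoters of the pathway's genes, usually beside bound NF-Y or Sp1. INSIG proteins retain SCAP when sterols are plentiful, and Insig1 is itself a target, so its mRNA is often read together with those of the enzymes. ATF4 is a stress-induced activator of amino acid synthesis and transport genes that binds composite CEBP-ATF elements.

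The promoters show what a direct comparison of these genes starts from. RefSeq promoter windows of 300 bases (GRCm38.p6), from 250 bases before to 50 bases after the start, were at hand for 6 of the 8 genes, all but Sqle and Fdft1. The classical SRE (TCACNCCAC, either strand) lay in 1 of the 6, Hmgcs1, and in 1.24% of 32851 windows of all genes. A looser form, TCACCNCA, which was chosen after the sequences were seen and overlaps the classical one in Hmgcs1, lay in 3 of the 6 (Hmgcs1, Srebf2 and Cyp51) and in 4.42% of all windows. The NF-Y box CCAAT lay in 6 of 6 windows, beside 37.4% of all, and the GC box GGGCGG, which Sp1 binds, in 6 of 6, beside 35.7%. The CEBP-ATF element TGATGNAA lay in 1 of the 6, Idi1, and in 3.97% of all windows. Such matches are letters in a window and were not tested as binding sites. Below are the stretches upstream of both the RefSeq and the GENCODE start for the 3 genes with an SRE-like match and for Idi1, 5′ to 3′ in the direction of the gene, with matches to the SRE forms, the NF-Y box or the CEBP-ATF element in capitals.

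Hmgcs1 (chr13:119690101-119690350, plus strand): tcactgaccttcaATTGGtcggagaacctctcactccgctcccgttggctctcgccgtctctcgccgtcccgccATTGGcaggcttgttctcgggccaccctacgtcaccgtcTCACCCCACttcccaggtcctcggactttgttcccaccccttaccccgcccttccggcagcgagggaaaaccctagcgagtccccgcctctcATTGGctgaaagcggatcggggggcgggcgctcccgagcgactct
Srebf2 (chr15:82147019-82147180, plus strand): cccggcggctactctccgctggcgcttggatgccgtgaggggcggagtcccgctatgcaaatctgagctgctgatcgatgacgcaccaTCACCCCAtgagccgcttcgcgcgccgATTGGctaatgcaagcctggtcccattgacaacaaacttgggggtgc
Cyp51 (chr5:4104747-4104947, minus strand): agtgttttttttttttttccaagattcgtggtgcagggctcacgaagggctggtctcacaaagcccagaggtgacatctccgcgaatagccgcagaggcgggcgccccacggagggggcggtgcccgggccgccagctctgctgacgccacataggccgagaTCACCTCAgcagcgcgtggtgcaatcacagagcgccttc
Idi1 (chr13:8885356-8885500, plus strand): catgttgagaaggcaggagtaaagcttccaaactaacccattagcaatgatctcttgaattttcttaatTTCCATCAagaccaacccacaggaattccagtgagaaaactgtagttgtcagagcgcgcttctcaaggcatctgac

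In the Hmgcs1 stretch the capitals mark 1 SRE, at chr13:119690214-119690222, between 3 inverted NF-Y boxes. The Srebf2 stretch holds 1 SRE-like match followed by 1 inverted NF-Y box, and the Cyp51 stretch 1 SRE-like match, with its NF-Y box nearer the start and outside the stretch. In the Idi1 stretch the capitals mark the inverted CEBP-ATF element, at chr13:8885425-8885432. The annotation places an exon of the gene Gm48574 over the Idi1 stretch.

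Between 24698337 and 32452751 reads were counted per library. In 1 library the label went against the data. ATF4 BKO replicate 1, described as male, had 4598 Xist counts where no other library had over 7, and 34 counts of 4 Y-linked genes where the others had 3284 to 4476, so the 8 genes and the gene lists below are also given without it. The targeted gene, Atf4, had 32.6, 52.6 and 23.5 CPM (counts scaled to library size with TMM) in the 3 ATF4 BKO libraries and 286 and 226 CPM in the WT libraries, a log2 fold change of -2.82 ± 0.34 (SE). All 8 brown adipocyte markers were detected, with a summed level between 21831 and 25196 TPM (transcript abundance scaled for length and library size) in every library. Skeletal muscle markers summed to 65.9 to 74.9 TPM in ATF4 BKO libraries and to 143 and 1986 TPM in WT replicates 1 and 2, and macrophage markers to 628, 1202 and 402 TPM against 173 and 1085 TPM. Fewer cells of a type and less RNA per cell cannot be told apart in such tissue libraries.

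On the per-length scale, the 8 genes fell into a high pair and a low group. Mean TPM over the 5 libraries was 111 for Hmgcs1, which encodes the cytosolic HMG-CoA synthase, and 89.6 for Insig1. Next came Srebf2 at 19.9 TPM, Lss at 18.3 TPM and Idi1 at 14.6 TPM, and then Cyp51, Sqle and Fdft1 at 9.53, 9.38 and 9.33 TPM. Only the step from Insig1 to Srebf2 separated neighbours whose ranges over the 5 libraries did not overlap, 57.4 to 122 TPM against 17.5 to 22.1 TPM. The ranges of all other neighbours overlapped. Compared within each library, however, Lss was above Idi1 and Idi1 above Cyp51 in all 5 libraries.

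Part of the TPM of 2 genes belonged to short transcripts that hold no complete coding sequence. Of the Lss TPM, 39.3% was assigned to the retained-intron transcript Lss-205 and 39.0% to the coding transcript Lss-201, although Lss-205 held 3.61% of the Lss counts and Lss-201 held 71.6%. For Srebf2, the retained-intron transcript Srebf2-205 held 37.0% of the TPM and 19.7% of the counts, and the coding transcript Srebf2-201 held 53.7% and 78.1%. Coding transcripts made up 39.7% of the TPM of Lss and 62.1% of that of Srebf2, and between 89.5% and 100% of that of the other 6 genes. Counted over coding transcripts alone, Lss had the lowest mean level of the 8 genes, 7.26 TPM, and Srebf2 had 12.4 TPM, so the order below Insig1 depends on which transcripts are counted. In the plot of TPM by transcript class, the retained-intron share of Lss and Srebf2 was seen in every library of both genotypes.

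**Figure D1:**
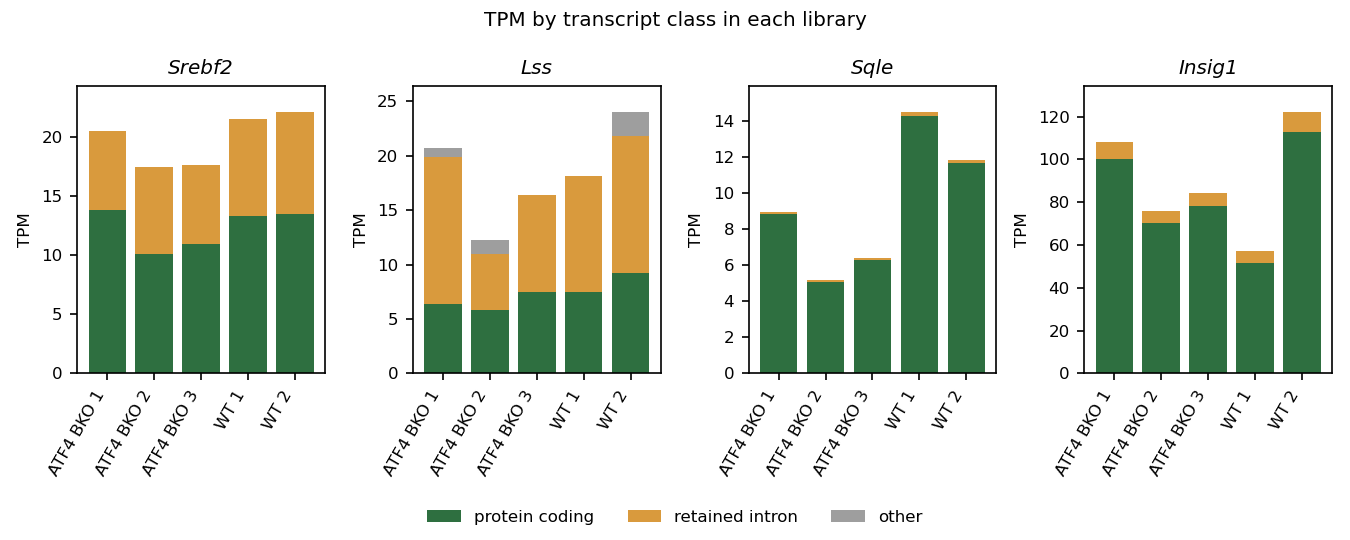
TPM (y axis) of Srebf2, Lss, Sqle and Insig1 in each of the 5 libraries (x axis), stacked by annotated transcript class. Retained-intron transcripts make up much of the Lss and Srebf2 bars in all 5 libraries and little of the Sqle bars, which are taller in WT 1 (14.5 TPM) and WT 2 (11.8 TPM) than in the 3 ATF4 BKO libraries (5.17 to 8.97 TPM). In TPM, every ATF4 BKO value lay below both WT values in 24.9% of all genes tested.

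The mRNA of the regulators Srebf2 and Insig1 was not called between the genotypes. Srebf2 had 64.9, 45.5 and 54.5 CPM in the ATF4 BKO mice (here and below in the order of replicates 1, 2 and 3) and 65.7 and 58.4 CPM in the WT mice (replicates 1 and 2), means of 55.0 ± 9.71 (SD, n = 3) and 62.1 ± 5.15 (SD, n = 2). Its values overlapped, with ATF4 BKO replicate 1 level with the WT mice. The log2 fold change was -0.18 ± 0.18 (SE; 95% interval -0.61 to 0.26), with an adjusted p of 0.942 by edgeR. Insig1 had 246, 151 and 186 CPM in the ATF4 BKO mice and 109 and 226 CPM in the WT mice. The 2 WT values differed 2.07-fold and bracketed 2 of the 3 ATF4 BKO values, so the WT pair was wider apart than the genotype means of 194 ± 48.0 (SD, n = 3) and 167 ± 82.5 CPM (SD, n = 2). The log2 fold change of Insig1 was 0.21 ± 0.35 (SE; 95% interval -0.64 to 1.07; edgeR adjusted p = 0.963).

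Of the enzymes before squalene, none was called. Hmgcs1, which joins acetyl-CoA and acetoacetyl-CoA to HMG-CoA, had 332, 181 and 227 CPM in the ATF4 BKO mice and 288 and 319 CPM in the WT mice. The highest and the lowest value were both ATF4 BKO, and the log2 fold change was -0.30 ± 0.26 (SE; 95% interval -0.94 to 0.35; edgeR adjusted p = 0.936). Idi1, the isomerase that makes dimethylallyl diphosphate, had 49.7, 19.0 and 41.9 CPM against 26.4 and 40.2 CPM. It had the widest spread of the 8 genes among the ATF4 BKO mice, 2.60-fold between replicates 1 and 2, and its log2 fold change was 0.15 ± 0.42 (SE; edgeR adjusted p = 0.978). Fdft1, squalene synthase, had 25.7, 14.2 and 29.5 CPM against 17.5 and 18.0 CPM. Its WT values lay close together and inside the range of the ATF4 BKO values, and its log2 fold change was 0.38 ± 0.31 (SE; 95% interval -0.38 to 1.15; edgeR adjusted p = 0.934). Fdft1 was at 0.66 without ATF4 BKO replicate 2, with an edgeR adjusted p of 0.714, and at 0.17 without ATF4 BKO replicate 3. Of the 31-base words in Idi1 transcripts, 18.8% also occur in other genes, most in Gm13502, and 14.3% of those of Fdft1, most in Gm6781. The counts of both are therefore less certain than those of the rest of the 8 genes, where the share was at most 3.46%.

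Sqle, which encodes squalene epoxidase, an oxygen-requiring control point of the pathway, was the 1 gene of the 8 whose genotypes did not overlap. It lies on chr15:59315077-59331192 (plus strand, GRCm38; ENSMUSG00000022351.14). It had 22.2, 11.3 and 15.5 CPM in the ATF4 BKO mice and 30.7 and 24.1 CPM in the WT mice, means of 16.3 ± 5.49 (SD, n = 3) and 27.4 ± 4.68 (SD, n = 2). All 3 ATF4 BKO values lay below both WT values, although ATF4 BKO replicate 1 and WT replicate 2 were close. The log2 fold change was -0.75 ± 0.29 (SE; 95% interval, not adjusted for the number of genes, -1.47 to -0.03), a ratio of ATF4 BKO to WT of 0.595. The edgeR p was 0.0431 before adjustment and 0.911 after it over all genes, and DESeq2 gave 0.0348 and 0.787, so Sqle was not called by either tool. It ranked 729 of 16450 genes by p. Every ATF4 BKO value lay below both WT values in 10.6% of all genes tested, and above both in 8.95%, which makes 19.6% without overlap in either direction. On the TPM scale, where the median log2 fold change of all genes shifts to -0.12, every ATF4 BKO value lay below both WT values in Srebf2 and Hmgcs1 as well, that is in 3 of the 8 genes, beside 24.9% of all genes on that scale.

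The sign of the Sqle difference was the same in each alternative, and its size was not. With no overlap between the genotypes, the sign could hardly turn when 1 library was left out or the libraries were split by file name. The unadjusted edgeR p was 0.00839, 0.0861 and 0.109 without ATF4 BKO replicates 1, 2 and 3. Leaving out either WT replicate leaves 1 WT mouse, so only the log2 fold change is given for those fits. The log2 fold change was -1.03 without ATF4 BKO replicate 1, the library that did not match its label, and -0.53 without ATF4 BKO replicate 2. It was -0.55 without WT replicate 1 and -0.92 without WT replicate 2. The libraries carry 1 of 2 file-name prefixes of unstated meaning, and it was -0.95 within the first, which holds WT replicate 1 with the ATF4 BKO replicates 1 and 2, and -0.64 within the second, which holds the other library of each genotype. With a covariate for skeletal muscle markers it was -1.40 (edgeR adjusted p = 0.362). On coding transcripts alone, an alternative chosen after seeing the data, the value was -0.71 and the unadjusted p by edgeR was 0.0604.

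Lss and Cyp51, which act after Sqle, were close to 0. Lss, lanosterol synthase, had 41.9, 28.6 and 42.3 CPM in the ATF4 BKO mice and 37.3 and 43.2 CPM in the WT mice, a log2 fold change of -0.10 ± 0.21 (SE; 95% interval -0.60 to 0.40; edgeR adjusted p = 0.973). Cyp51, lanosterol demethylase, had 38.5, 17.9 and 25.8 CPM against 24.2 and 33.5 CPM, a log2 fold change of -0.08 ± 0.33 (SE; 95% interval -0.89 to 0.74; edgeR adjusted p = 0.982). In both genes ATF4 BKO replicate 2 was the lowest library and the genotypes overlapped.

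**Figure D2:**
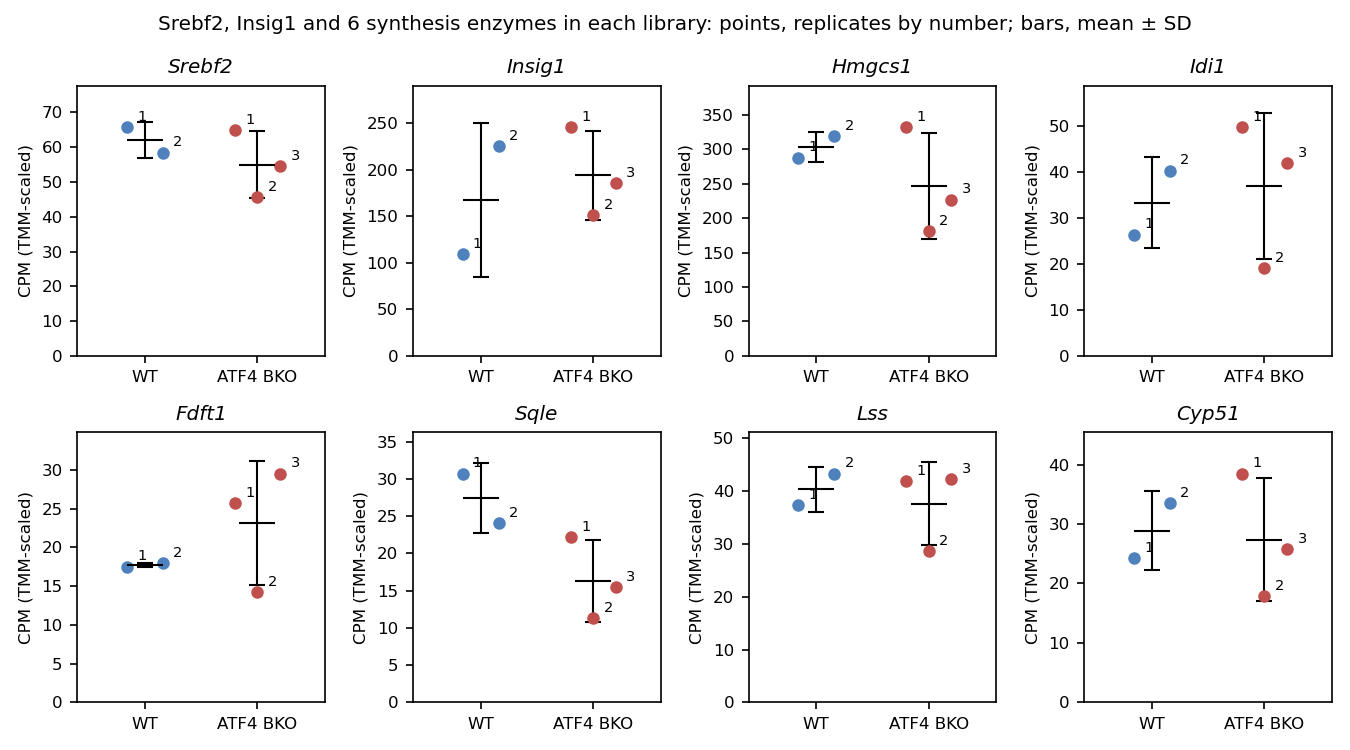
CPM (y axis, from 0) of the 8 genes in each library, with points numbered by replicate and bars for the mean ± SD of 2 WT and 3 ATF4 BKO mice. Sqle is the 1 panel of 8 in which the genotypes do not overlap (11.3 to 22.2 against 24.1 to 30.7 CPM), beside 19.6% of all genes tested. ATF4 BKO replicate 2 is the lowest point in 7 of the 8 panels.

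As a group, 0 of the 8 genes were called by edgeR and 0 by DESeq2. Over all genes, edgeR called 1 of 16450 (0.00608%), with 0 lower (0%), and DESeq2 called 121 (0.736%), of which 100 lower (0.608%), so the low count for these 8 genes is read against a low count for all. At an unadjusted edgeR p under 0.05, 1 of 8 was lower (Sqle) and 0 were higher, beside 3.42% and 1.81% of all genes (5.23% in either direction). The log2 fold change was below 0 in 5 of the 8 genes, beside 48.8% of all genes, and below -0.5 in Sqle alone, beside 7.93%. The median over the 8 genes was -0.09, and over all genes it was 0.01. Without ATF4 BKO replicate 1, 6 of 8 lay below 0 and the median was -0.25, with -0.31 for Srebf2, 0.01 for Insig1, -0.13 for Idi1, 0.30 for Fdft1, -0.18 for Lss and -0.40 for Cyp51. Hmgcs1 was then at -0.57, with an edgeR adjusted p of 0.984. Without ATF4 BKO replicate 2, 3 of 8 lay below 0 and the median was 0.13. An exact permutation test of 3 against 2 mice cannot give a p under 0.1 in any single gene.

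The remaining 15 enzymes of cholesterol synthesis, from a list of the pathway, gave much the same picture. None was called, none had an unadjusted edgeR p under 0.05, 6 lay below 0 and 9 above, and the median was 0.04 on the log2 scale. Without ATF4 BKO replicate 1, 11 lay below 0 and the median was -0.15, and without ATF4 BKO replicate 2, 1 lay below 0 and it was 0.22. The values ran from -0.29 for Msmo1, a C4 demethylase of sterols, to 0.25 for Lbr, a sterol C14 reductase that is also a nuclear envelope receptor. Ebp, a sterol isomerase, was the 1 enzyme of the 15 whose genotypes did not overlap, with 23.4, 21.5 and 24.0 CPM against 20.0 and 20.6 CPM. Over all genes, 8.95% had every ATF4 BKO value above both WT values, and 19.6% did not overlap in either direction. In the plot of fold changes along the pathway, Sqle is the 1 enzyme of the 20 drawn whose 95% interval did not reach 0. Such an interval corresponds to an unadjusted edgeR p under 0.05, which 5.23% of all genes had.

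**Figure D3:**
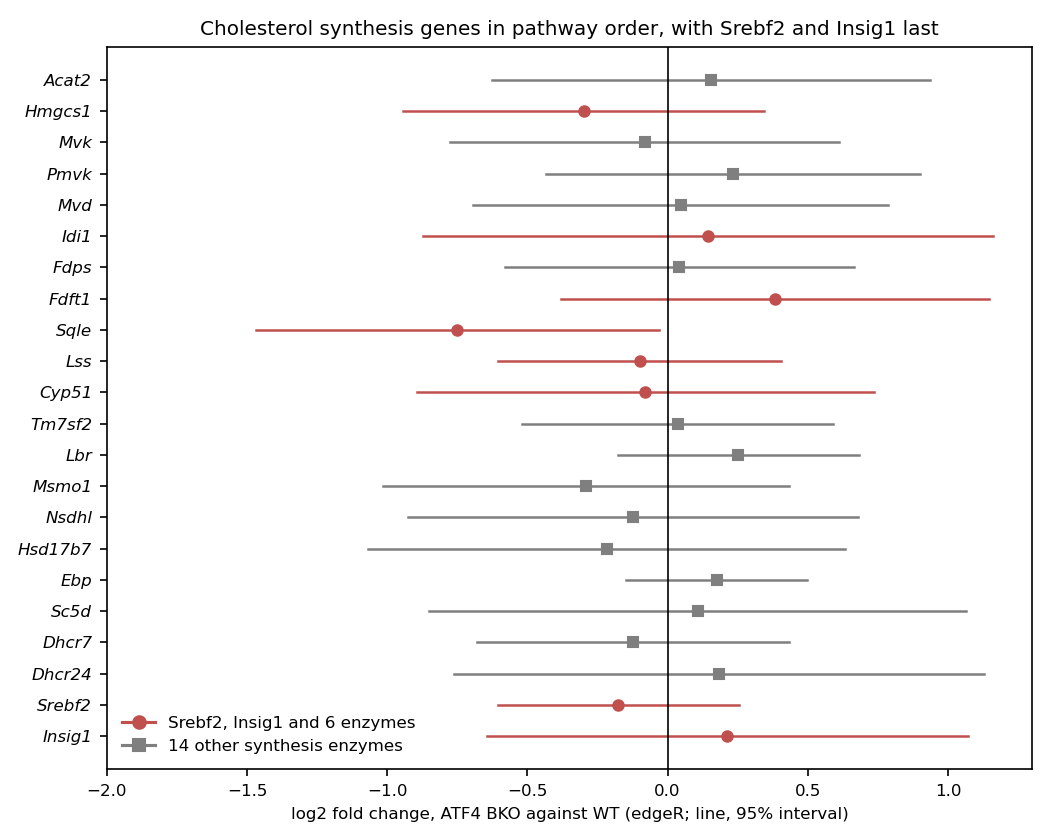
Log2 fold change of ATF4 BKO against WT (x axis, edgeR, lines for 95% intervals not adjusted for the number of genes) of 20 synthesis enzymes in pathway order, then Srebf2 and Insig1 (y axis). The Sqle interval, -1.47 to -0.03, is the 1 of 22 that does not include 0, beside 5.23% of all genes with an unadjusted edgeR p under 0.05.

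The ATF4 BKO libraries differed among themselves more than the genotypes did. ATF4 BKO replicate 2 was the lowest library for 7 of the 8 genes, all but Insig1, and for 12 of the 15 other enzymes. That makes 19 of 23 (82.6%), beside 21.8% of all genes tested. ATF4 BKO replicate 1 was the highest library for 15 of the 23 (65.2%), beside 16.7% of all genes. From replicate 2 to replicate 1 of the ATF4 BKO mice, all 8 genes were higher, by a median log2 difference of 0.86 that ran from 0.51 for Srebf2 to 1.38 for Idi1, whereas the median over all genes was -0.06. WT replicate 1 lay above WT replicate 2 in 2 of the 8 genes, Srebf2 and Sqle, beside 49.6% of all genes. This order was noticed in the values and is a description of 5 libraries. ATF4 BKO replicate 1 is also the library whose Xist and Y-linked counts went against its label, and the part of that in the order was not tested.

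In the fatty acid genes that SREBPs also act on, the same libraries were mostly the highest and the lowest. ATF4 BKO replicate 1 was the highest library for 7 of 7 and ATF4 BKO replicate 2 the lowest for 6 of 7. Fasn, fatty acid synthase, had 18472, 2131 and 7237 CPM in the ATF4 BKO mice and 4438 and 5946 CPM in the WT mice. The WT values thus lay between those of the ATF4 BKO mice. Scd1, stearoyl-CoA desaturase, was the 1 of the 7 whose genotypes did not overlap, with 13455, 6681 and 9435 CPM against 4605 and 5701 CPM, a log2 fold change of 0.94 ± 0.34 (SE; edgeR adjusted p = 0.911). With all libraries, 7 of 7 log2 fold changes lay above 0, the median being 0.74, and 0 genes were called. Without ATF4 BKO replicate 1, 3 of 7 lay above 0 and the median was -0.15, with Scd1 at 0.65 and Fasn at -0.15. The median was 1.17 without ATF4 BKO replicate 2. Macrophage markers were highest in ATF4 BKO replicate 2 for 8 of 8 markers and none was at 0 in any library, and skeletal muscle markers were highest in WT replicate 2 for 12 of 12. Their part in the order of the sterol genes was not tested.

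**Figure D4:**
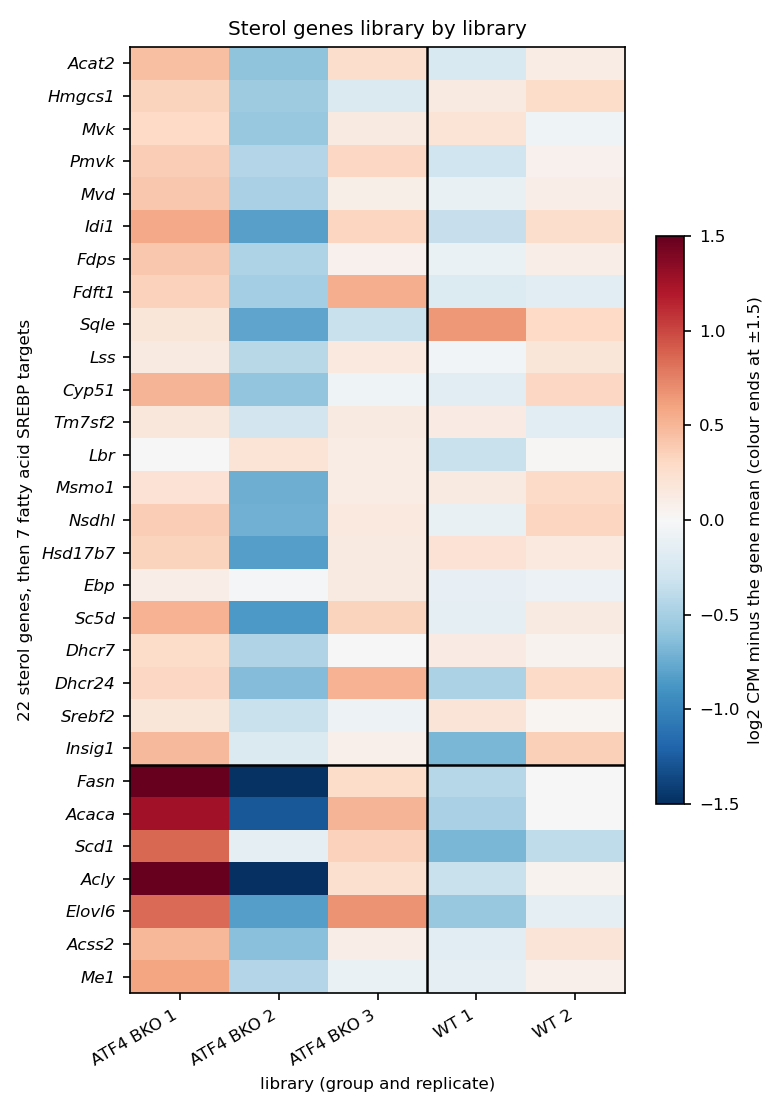
Log2 CPM of 22 sterol genes and 7 fatty acid genes (y axis, separated by a line) in each library (x axis), minus the mean of that gene, with colour ending at ±1.5. Most rows are red in ATF4 BKO 1 and blue in ATF4 BKO 2, and Sqle is red in both WT libraries (0.65 and 0.30) and blue in ATF4 BKO 2 and 3 (-0.79 and -0.34), a pattern of signs that Hmgcs1 and Srebf2 share.

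Because most of these genes moved together from library to library, each was also set against the mean of the other 22 sterol genes in the same library. On this relative log2 scale, centred on 0, Sqle was at -0.14, -0.32 and -0.48 in the ATF4 BKO libraries and at 0.75 and 0.18 in the WT libraries. Sqle was thus low for its pathway in all 3 ATF4 BKO libraries, the low replicate 2 included. Hmgcs1 was likewise lower in each ATF4 BKO mouse (0.03, -0.05 and -0.35 against 0.21 and 0.16), which it was not on the CPM scale. Fdft1 was higher in each (0.03, -0.02 and 0.44 against -0.15 and -0.31), and the other 5 genes overlapped. Set against the mean of all 23 sterol genes, 2.7% of all genes tested were lower in every ATF4 BKO mouse and 5.56% were higher. On the CPM scale these shares were 10.6% and 8.95%. The sterol mean itself differed widely between the ATF4 BKO libraries, which spreads genes that do not move with it. The shares on the relative scale are therefore no measure of how many sterol genes would be apart. The ratio of Sqle to Fdft1 CPM, a pair chosen after their values were seen, was 0.863, 0.796 and 0.525 in the ATF4 BKO mice and 1.75 and 1.34 in the WT mice. Sqle and Fdft1 had the lowest and the highest log2 fold change of the 8 genes, -0.75 and 0.38. A ratio of such extremes tends to set the genotypes apart, so it adds no support of its own. These 2 enzymes follow each other in the pathway, Fdft1 making squalene and Sqle using it.

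Genes that process SREBPs or sense sterols were mostly slightly below 0, and none was called. Of 11 such genes, 10 lay below 0, beside 48.8% of all genes, the median being -0.15 on the log2 scale. WT replicate 1 was the highest library for 7 of the 11, beside 26.2% of all genes. The median was -0.06 without WT replicate 1. Among the libraries of the first file-name prefix it was -0.28, and among those of the second -0.05. In 3 of the 11, Insig2 and Erlin1 among them, every ATF4 BKO value lay below both WT values, beside 10.6% of all genes. Erlin1, which encodes a membrane protein of the endoplasmic reticulum, had 11.4, 16.3 and 8.35 CPM in the ATF4 BKO mice and 24.3 and 16.5 CPM in the WT mice. Its log2 fold change of -0.76 was the lowest of the 11, and its edgeR p was 0.053 before adjustment and 0.911 after it. ATF4 BKO replicate 2 was nearly level with WT replicate 2. Scap, the escort of SREBPs, had 57.8, 66.4 and 68.1 CPM against 76.7 and 59.9 CPM, so it overlapped. Srebf1, which encodes the fatty acid regulator SREBP1, had 342, 133 and 253 CPM against 293 and 214 CPM, so its highest and lowest libraries were ATF4 BKO replicates 1 and 2.

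Of 12 genes of sterol uptake and transport, 11 were tested and 0 called, with 4 below 0, 7 above 0 and a median of 0.10 on the log2 scale. Mylip, a ubiquitin ligase and target of the LXR receptors, had the highest log2 fold change of the list, 1.02, with 23.4, 64.3 and 46.1 CPM against 19.0 and 25.1 CPM. ATF4 BKO replicate 1 lay between the WT values of Mylip, so the genotypes overlapped. Npc1, a lysosomal cholesterol exporter, had the lowest, -0.63, with 52.9, 95.6 and 68.1 CPM against 131 and 92.6 CPM, and also overlapped. The 5 genes of the LXR receptors and sterol efflux all lay above 0, with a median of 0.43. Among the libraries of the first prefix this median was 1.11 and among those of the second it was 0.00. ATF4 BKO replicate 2 was the highest library for 4 of these 5 genes and for 8 of 8 macrophage markers, and WT replicate 1 was the lowest for 4 of 5 and 6 of 8. The corresponding medians of the macrophage markers were 1.90 and -1.13, and their part in the LXR list was not tested. Of the 6 genes of esterification and oxysterols 3 lay below 0 and 3 above, and of the 9 tested genes of the isoprenoid branch 7 lay below 0, with medians of 0.02 and -0.03. In the latter list Pdss1, which makes the side chain of ubiquinone, had 13.0, 11.4 and 13.6 CPM against 17.6 and 16.2 CPM, a log2 fold change of -0.41 with an edgeR adjusted p of 0.911. In none of these lists was a gene called by edgeR or DESeq2. Without ATF4 BKO replicate 1 the medians were -0.23 for the genes that process SREBPs or sense sterols, 0.10 for uptake and transport, 0.40 for LXR and efflux, 0.19 for esterification and oxysterols and -0.13 for the isoprenoid branch. The LXR median was 0.25 without ATF4 BKO replicate 2, 0.23 without WT replicate 1 and 1.08 without WT replicate 2.

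For scale, 6 ATF4 targets used as reference, Atf4 itself left out, were all below 0. Their median log2 fold change was -2.60 (-2.47 without ATF4 BKO replicate 1, -1.42 without WT replicate 1), and DESeq2 called 5 of them while edgeR called 0. The median of the 8 sterol genes was -0.09 in the same fit, and apart from Sqle the lowest bound of their 95% intervals was -0.94, for Hmgcs1. The widest interval, that of Idi1, ran from -0.87 to 1.16.

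The genes whose profile over the 5 libraries lay nearest to the mean profile of the 8 genes were Mmd, Cd274, Ppil1, Eif4ebp2 and Chordc1. They were found among 6574 genes outside the lists with a mean of at least 10 TPM, by the root mean square distance of centred log2 CPM. Mmd, at 0.034, was nearest, with 97.8, 62.5 and 82.4 TPM in the ATF4 BKO mice and 82.5 and 107 TPM in the WT mice. Of the 8 genes themselves, Lss (0.114) and Cyp51 (0.118) lay nearest to their mean profile, and Sqle (0.388) lay farthest from it.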

How the data were processed

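BAT RNA came from 3 ATF4 BKO and 2 WT mice. The libraries were stranded mRNA libraries, for which the authors, per the labels, used kallisto 0.45.0 with build mm10. They deposited estimated counts and TPM for 141450 transcripts per library, without normalization between libraries. Of these, 138191 matched GENCODE M21 (GRCm38), and the rest held 1.16% to 1.29% of the counts. Sums per gene were rounded to whole numbers, and a gene was kept if 2 or more libraries had 10 or more counts.

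Genotypes were compared across all genes with edgeR 4.0.16 (R 4.3.3), using TMM, a quasi-likelihood test with no term but genotype, Benjamini-Hochberg adjustment and a threshold of 0.05. CPM are TMM-scaled, with a prior count of 2 on the log2 scale. The common dispersion was 0.0758. Alternatives were DESeq2 1.42.0, other scalings, no count filter, limma 3.58.1 on log2(TPM + 1) and log2(TPM + 0.1), each library left out, blocks and a muscle covariate. Further ones, chosen after seeing the data, were coding transcripts alone, overlap on the TPM scale and the other lists with each library left out. The scale relative to the sterol genes was also chosen then. The fits were tested on simulated counts. No pair of libraries agreed within sampling noise (chi-square per degree of freedom at least 47.9). The genes and lists were chosen with earlier results of these data known, and all listed genes could be named. Some listed genes are counted but not reported singly here. Shared 31-base words were counted on the GENCODE transcripts.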

Additional observations from a re-analysis of the deposited data

How the results depend on the processing

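In each alternative run, 0 of the 8 genes were called, with a smallest adjusted p between 0.362 and 0.99979. The count of genes called over all genes moved from 1 to 121 with DESeq2, 8 with every gene of at least 1 count, 0 and 2 with limma on log2(TPM + 1) and log2(TPM + 0.1), 0 with the file-name prefix as a block and 210 with the muscle covariate. It ran from 0 to 23 when 1 library was left out, with 23 without WT replicate 1. The median log2 fold change of the 8 genes, -0.09, ran from -0.248 to 0.126 when 1 library was left out, and was 0.00 among the libraries of the first prefix and -0.19 among those of the second. That of the other 15 enzymes, 0.04, was -0.175 and -0.177 with limma on the 2 TPM scales, which move the median of all genes to -0.12 and -0.17, and ran from -0.146 (without ATF4 BKO replicate 1) to 0.219 (without ATF4 BKO replicate 2).

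Sqle, Srebf2 and Hmgcs1 kept their sign in each alternative, which for Sqle follows largely from the lack of overlap between the genotypes. Without ATF4 BKO replicate 2, however, Srebf2 was at -0.04 and Hmgcs1 at -0.10. The sign of Idi1, which was 0.478 without ATF4 BKO replicate 2, turned with limma (-0.106 and -0.117), without ATF4 BKO replicate 1 (-0.128), without WT replicate 1 (-0.106) and with the replicate block (-0.0778). Lss turned without ATF4 BKO replicate 2 (0.081) and without WT replicate 2 (0.000421), and Cyp51, at -0.404 without ATF4 BKO replicate 1, in the same 2 fits (0.17 and 0.166), with the muscle covariate (0.0588) and among the libraries of the first prefix (0.114). Insig1, at 0.821 without WT replicate 2, turned without WT replicate 1 (-0.2) and among those of the second prefix (-0.283), and Fdft1 with the muscle covariate (-0.147), while the replicate block gave 0.11. The cause was not tested.

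Libraries with the same replicate number share only that number, since nothing in the labels pairs them and their deviations correlated by 0.0473 and 0.2 in 2 pairs. With the replicate block, fitted to replicates 1 and 2 of each genotype, 0 genes were called, 697 had an unadjusted edgeR p under 0.05 against 860 without it, and the median of the 8 genes was -0.15.

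With 3 against 2 libraries and 3 residual degrees of freedom, the spread of the WT mice rests on 1 pair. The edgeR p-values set the genotype difference against a spread pooled over both groups and drawn towards that of other genes. Counts of the 8 genes ran from 317 to 10809 per library, so counting error is small beside the spread between mice.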
